A study of Mus musculus with 4 samples.

Results

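Kinesins are motor proteins that hydrolyse ATP to walk along microtubules or to take their ends apart. One set of them builds the spindle, moves chromosomes and finishes cytokinesis, and the genes of this set are expressed by dividing cells. Another set carries vesicles, mitochondria, receptors and tubulin along axons and dendrites, and a neuron that has left the cell cycle depends on it for growth of its axon.

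The kinesin genes of the deposited expression table were taken by symbol, as the numbered *Kif* genes, the C-terminal motors *Kifc1*, *Kifc2*, *Kifc3* and *Kifc5b*, the kinesin-associated protein *Kifap3* and the light chains *Klc1* to *Klc4*. This gave 46 of the 24421 genes in the table. They were sorted by their known roles into 14 mitotic kinesins, 22 transport kinesins (motors, light chains and *Kifap3*), 6 ciliary or centriolar kinesins and 4 others. RNA was measured in GFP+ cells, sorted at E11.5 from mouse embryonic neural tubes, from *Prdm13GFP/+* embryos (2 libraries, labelled Het) and from *Prdm13GFP/GFP* embryos (2 libraries, labelled Homo). In both genotypes GFP was knocked into the first exon of *Prdm13*, which disrupts that allele, so the heterozygote carried 1 working copy and the homozygote none, and both were on a mixed ICR and C57Bl/6 background. *Prdm13* encodes a chromatin-associated repressor of the dorsal neural tube. RNA from several embryos of a genotype was combined in 1 pool, and the libraries of a pool are technical replicates, so that the p-values below hold no variation between embryos. In a bulk sample, fewer cells of a type and less RNA per cell cannot be told apart.

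The values are RPKM, reads scaled to the length of the exons and the size of the library, so levels can be compared between genes as well as between libraries. Whole reads could be recovered from the RPKM of 19145 of the 19200 genes above 0, and they summed to between 12189985 and 19384306 per library. Each tested kinesin had 67 to 12611 reads in a library. The level of *Prdm13* was 114 and 127 RPKM in the Het libraries and 310 and 324 RPKM in the Homo libraries, and reads of the disrupted allele still count there, so this level does not check for loss of the protein. Genes were tested where their mean RPKM reached 1 in one or both genotypes, which held for 12046. Genotypes were compared two-sided by limma, on log2(RPKM + 0.1), and p-values were adjusted after Benjamini and Hochberg over all tested genes. A gene passed at an adjusted p under 0.05. The fold changes below are Homo over Het on this scale, which understates the change of genes with low RPKM. The median log2 fold change of all genes tested was 0.01. With 2 libraries in each genotype, the smallest two-sided p of an exact permutation test is 0.333, so none is reported for single values. SE is the standard error of a log2 fold change in the limma fit.

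Of the 46 kinesins, 39 reached the level for testing, 16 of these were lower in the Homo libraries at an adjusted p under 0.05, and 4 were higher. Over all genes tested, 9.95% passed as lower and 9.76% as higher. A fold of at least 1.5 was also reached by 3 of the lower kinesins (*Kif13b*, *Kif20b* and *Kif14*) and by 1 of the higher (*Kif26b*), where 2.67% of all genes tested were lower and 3.65% higher by this rule. The libraries of the genotypes did not overlap for 22 kinesins that were lower and 9 that were higher in Homo, against 30.3% and 31.7% of all genes tested. When a single library was left out, the library left alone in its genotype was assumed to vary like the pair of the other genotype. The number of kinesins that passed then fell from 20 to 8 without the first Het library, 11 without the second, 8 without the first Homo library and 1 without the second. The share of all tested genes that passed in either direction fell in the same fits, from 19.7% to 8.40, 8.52, 7.71 and 5.13%. *Klc1* passed in each of the 4 fits, *Kif11*, *Kif20a*, *Kif20b* and *Kif13b* passed in all but the fit without the second Homo library, and *Kif2c*, *Kif22*, *Kifc1*, *Kif24*, *Kif21a*, *Kif1a* and *Klc2* passed in none.

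**Figure D1:**
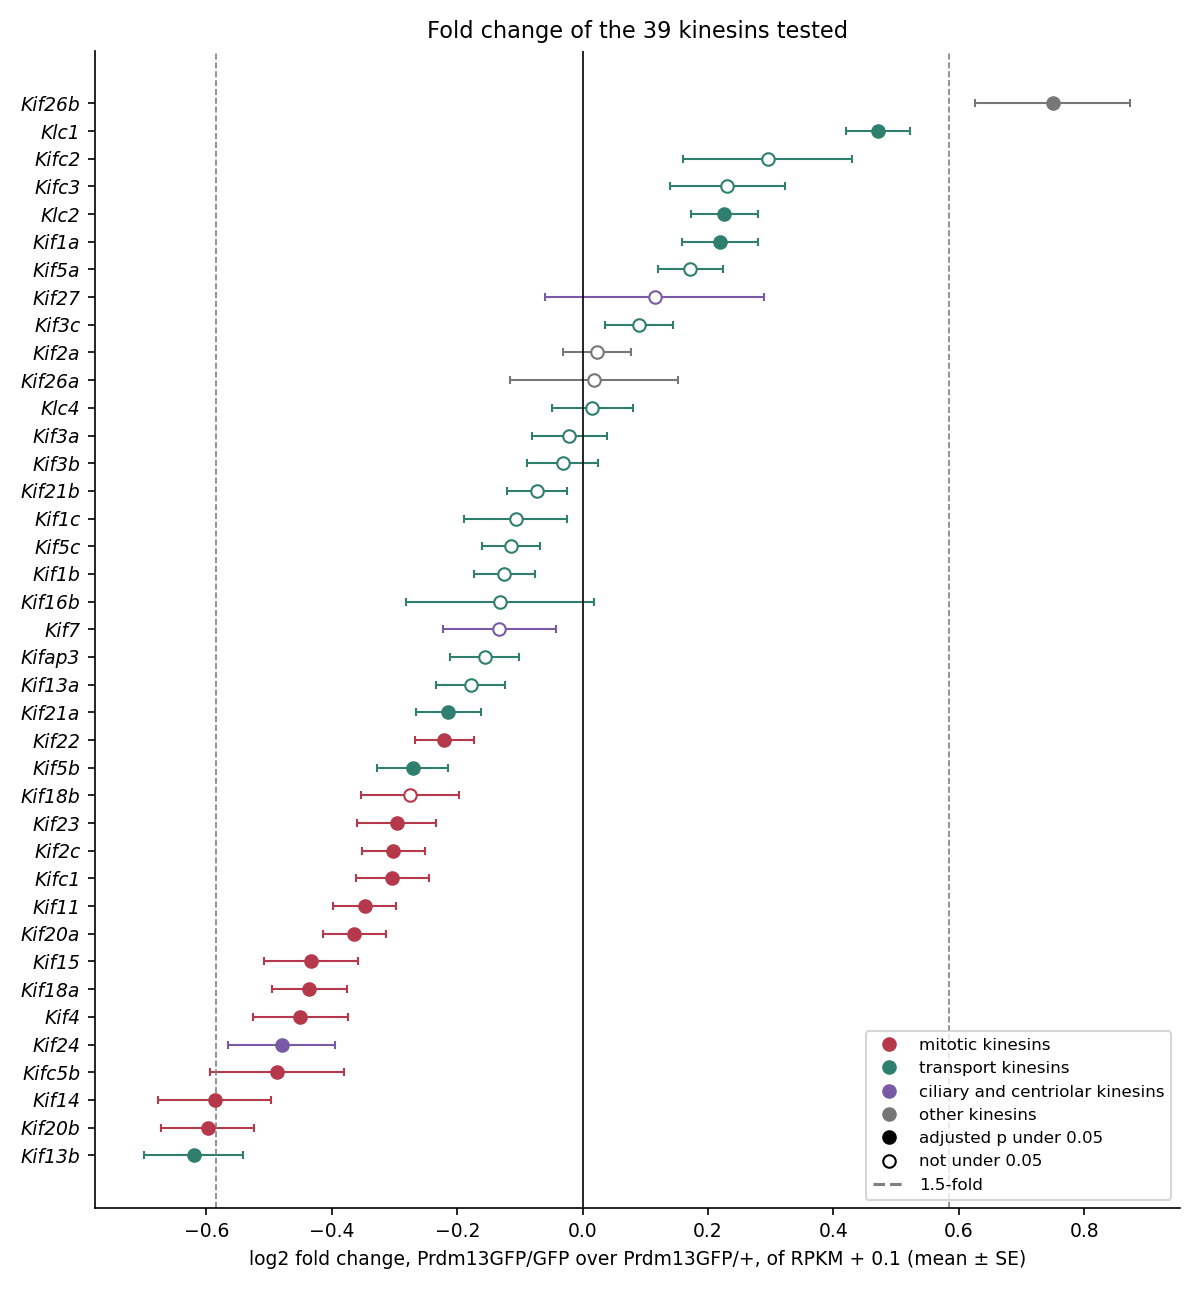
Log2 fold change (Prdm13GFP/GFP over Prdm13GFP/+, on RPKM + 0.1) of the 39 kinesins tested, with the standard error of the limma fit as bars, colour for class and filled points for an adjusted p under 0.05. The 13 mitotic kinesins lie between -0.60 and -0.22, while the 20 transport kinesins lie on both sides of 0, from -0.62 (*Kif13b*) to 0.47 (*Klc1*).

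The mitotic kinesins were lower in the Homo libraries as a group. For each of the 13 tested, both Homo libraries were below both Het libraries, and 12 passed the test. *Kif2b*, the remaining mitotic kinesin, is related to the microtubule depolymerase *Kif2c* and had 0 reads in each library, which allows levels of up to 0.0730 to 0.116 RPKM (3 reads per library, counting error only). The median log2 fold change of the 13 was -0.36, and that of all genes tested 0.01. Summed over the class, the level was 310 and 302 RPKM in the Het libraries and 241 and 240 RPKM in the Homo libraries. The class made up 31.5 and 31.1% of the summed kinesin RPKM in Het and 25.5 and 25.0% in Homo.

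The promoters of the mitotic class were read from RefSeq windows of the mouse build GRCm38.p6, to which all coordinates here refer, 250 bases before to 50 bases after each transcription start. Such genes often carry a CHR (cell cycle genes homology region) beside a CCAAT box, which binds NF-Y. The CHR can be bound by the DREAM complex, which holds mitotic genes silent outside late cell cycle. The stretches below run 5′ to 3′ on the gene's strand, 60 bases before the start and 40 from it, with the CHR (TTTGAA on either strand) and the CCAAT box (CCAAT on either strand) in capitals. The 2 motifs overlapped in 0 places in the windows of the tested kinesins. The stretches are shown for 6 mitotic kinesins and for a kinesin light chain and a heavy chain of axonal transport, *Klc1* and *Kif5c*. These are examples picked by hand and do not stand for their classes. All 6 mitotic ones have a CHR within 30 bases of the start, which *Kif14*, *Kif2c* and *Kif18a* lack. The stretches of *Klc1* and *Kif5c* hold neither motif, while the transport genes *Kif3a* and *Klc4* have a CCAAT box at -18 and -45.
Kif11 (chr19:37376322-37376421, plus strand): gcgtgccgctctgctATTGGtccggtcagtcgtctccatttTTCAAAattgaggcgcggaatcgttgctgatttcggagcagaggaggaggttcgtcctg
Kif15 (chr9:122951021-122951120, plus strand): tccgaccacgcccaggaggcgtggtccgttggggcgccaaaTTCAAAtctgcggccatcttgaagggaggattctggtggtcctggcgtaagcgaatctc
Kif20b (chr19:34922298-34922397, plus strand): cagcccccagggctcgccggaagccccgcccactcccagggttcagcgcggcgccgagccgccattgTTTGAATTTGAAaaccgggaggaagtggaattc
Kif22 (chr7:127042381-127042480, minus strand): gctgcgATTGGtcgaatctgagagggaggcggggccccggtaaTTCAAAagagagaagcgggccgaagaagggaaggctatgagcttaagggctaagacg
Kif23 (chr9:61946760-61946859, minus strand): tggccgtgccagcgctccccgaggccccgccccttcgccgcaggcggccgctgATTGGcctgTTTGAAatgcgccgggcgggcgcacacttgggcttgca
Kif4 (chrX:100626005-100626104, plus strand): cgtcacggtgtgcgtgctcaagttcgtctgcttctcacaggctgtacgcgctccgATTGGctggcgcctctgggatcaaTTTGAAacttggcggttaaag
Klc1 (chr12:111758808-111758907, plus strand): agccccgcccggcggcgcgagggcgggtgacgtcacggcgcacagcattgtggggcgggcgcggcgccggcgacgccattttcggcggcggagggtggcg
Kif5c (chr2:49619226-49619325, plus strand): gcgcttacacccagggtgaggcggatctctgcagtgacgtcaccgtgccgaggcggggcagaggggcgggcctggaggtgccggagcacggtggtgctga

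Windows were matched by gene ID for 31 of the 39 kinesins tested, 12 of them mitotic and 13 of them transport kinesins. *Kif20a*, *Kif5a*, *Kif5b*, *Kif13b*, *Kif21b*, *Klc2*, *Kifc2* and *Kifc3* had none. Some windows lay at starts inside the gene coordinates, among them the only windows of *Kif14*, *Kif2c*, *Kif27*, *Kif3a* and *Kifap3*. Those of *Kif14* and *Kif2c* held the CHR letters at -228 and -103. The CHR letters were in the window of 11 of the 12 mitotic genes and of 1 of the 13 transport genes, *Kif1a*, at 1 of its annotated starts. They were also in 1 of 3 ciliary or centriolar genes, *Kif27* at -191, -89 and -73, and in 1 of 3 of the others, *Kif26b* at -9, and both of these windows held a CCAAT box as well. *Kif26b* passed as higher in Homo and *Kif27* did not pass. Over all 32851 windows of the table, 17.9% held them. Within 30 bases of the start, a distance chosen after the positions were seen, they lay in 9 of the 12 mitotic genes, in 0 of the 13 transport genes, in *Kif26b* and in 3.19% of all windows. The CCAAT letters were in 8 of the 12 mitotic genes, 5 of the 13 transport genes and 37.4% of all windows. Both motifs together were in 8 of the 12, 0 of the 13 and 6.95% of all windows. The kinesins are counted here by gene, and by gene the shares over all 27025 genes were higher. They were 20.2% for the CHR letters, 3.72% for these within 30 bases, 41.1% for the CCAAT letters and 7.97% for both motifs. The variant TTCGAA was in 1.56% of all windows and, among the tested kinesins, in 1, the centriolar *Kif24*. *Kif18a* was the mitotic gene without the CHR letters in its window, and its level was lower in Homo like that of the others. These matches describe the letters of the windows, and binding was not measured here.

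**Figure D2:**
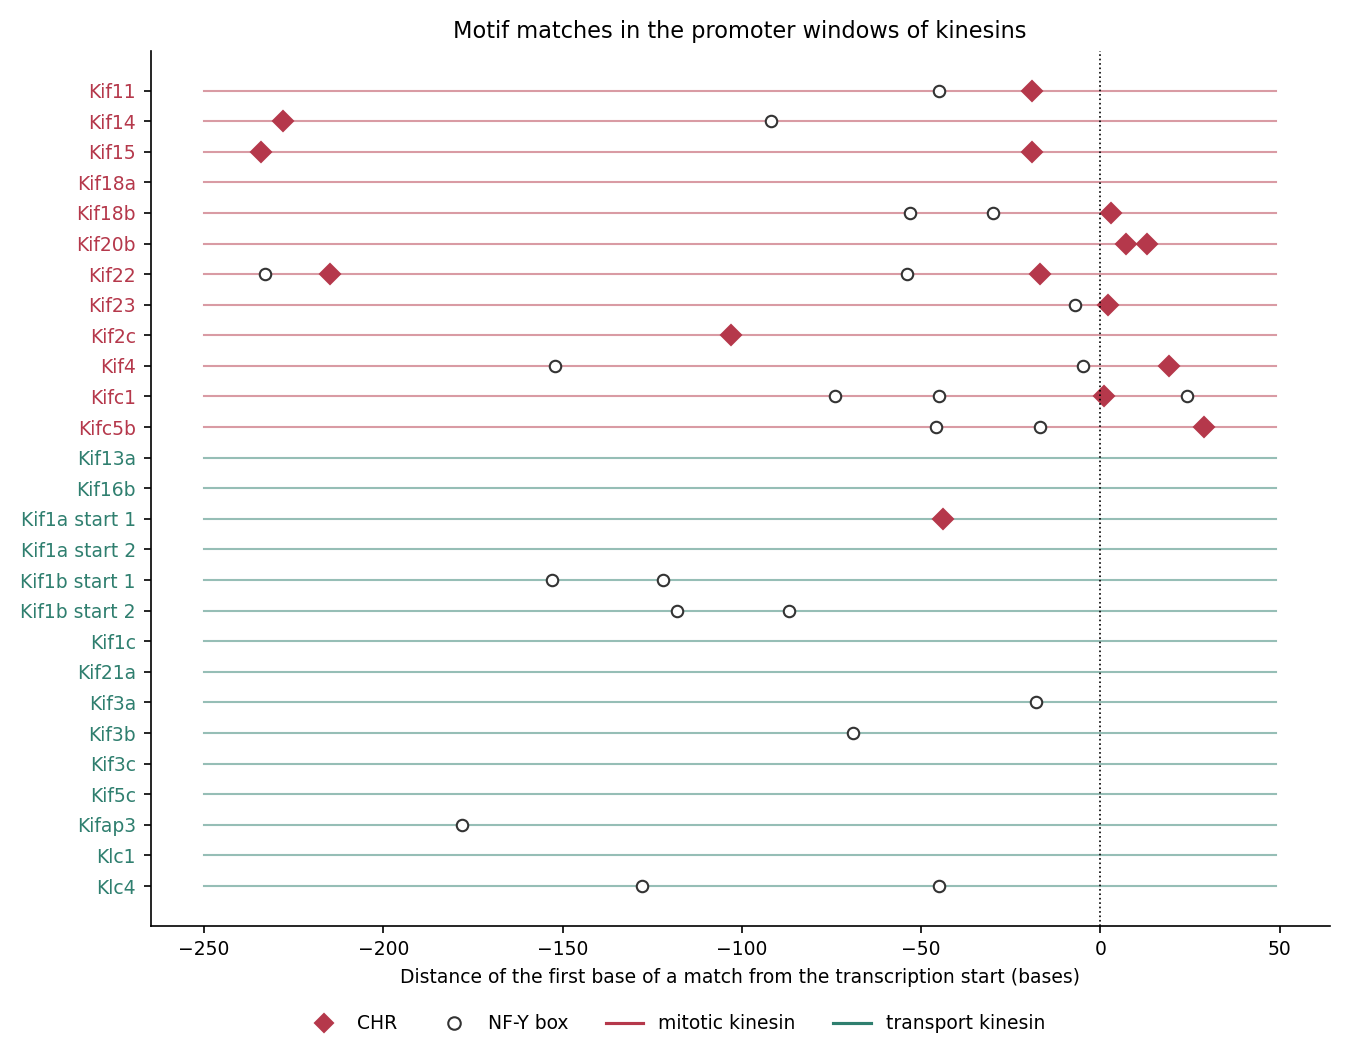
First base of each CHR (diamonds) and CCAAT box (circles, labelled NF-Y box) in the windows of mitotic and transport kinesins, against the distance in bases from the transcription start, with genes of more than 1 annotated start on a line per start. The CHR matches of 9 mitotic genes lie within 30 bases of the start, and the single match of a transport gene is that of *Kif1a* at -44.

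Motors of cytokinesis and of the spindle midzone were among those that fell. *Kif20b* (gene ID 240641, chr19:34922335-34975750), a midzone and abscission motor, was at 13.6 and 12.1 RPKM in the Het libraries and at 8.59 and 8.31 RPKM in the Homo libraries. Both Homo libraries were below both Het libraries, and the log2 fold change was -0.60 (SE 0.074, adjusted p = 0.00323, limma). *Kif14* (gene ID 381293, chr1:136466301-136555938), which recruits citron kinase to the midbody, had 6.03 and 5.45 RPKM in Het and 3.87 and 3.70 RPKM in Homo, a log2 fold change of -0.59 (SE 0.090, adjusted p = 0.00687, limma). *Kif20a*, the motor that takes the chromosomal passenger complex to the midzone, had 26.6 and 27.2 RPKM in Het and 20.9 RPKM in both Homo libraries. Its log2 fold change of -0.36 (SE 0.050, adjusted p = 0.0047, limma) was the median of the class.

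*Kif23*, the centralspindlin motor that bundles midzone microtubules, was at 29.8 and 27.0 RPKM in Het and 23.2 and 22.9 RPKM in Homo. Its log2 fold change was -0.30 (SE 0.063, adjusted p = 0.0218, limma), and it passed only in the fit without the second Het library when single libraries were left out. *Kif4*, a chromokinesin that also shapes the midzone, fell by 0.45 on the log2 scale, from 23.2 and 20.5 RPKM to 16.5 and 15.4 RPKM. *Kif22*, the chromokinesin that pushes chromosome arms outward, had the highest level of the class and the smallest decrease, with 52.9 and 54.2 RPKM in Het and 45.4 and 46.5 RPKM in Homo. Its log2 fold change was -0.22 (SE 0.047, adjusted p = 0.0218, limma).

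Motors that set up and keep the bipolar spindle were lower as well. *Kif11* (gene ID 16551, chr19:37376382-37421863), the tetrameric motor that slides antiparallel microtubules apart, had 39.2 and 37.5 RPKM in Het and 30.2 and 30.02 RPKM in Homo. The Homo libraries lay well below both Het libraries, with a log2 fold change of -0.35 (SE 0.050, adjusted p = 0.00552, limma). *Kif15*, which can stand in for *Kif11* in spindle maintenance, had 30.6 and 27.7 RPKM in Het and 22.7 and 20.5 RPKM in Homo, a log2 fold change of -0.43 (adjusted p = 0.0107, limma). The minus-end motor *Kifc1*, which focuses spindle poles, fell by 0.30 on the log2 scale (adjusted p = 0.0151, limma) and its near copy *Kifc5b* by 0.49 (adjusted p = 0.0237, limma). *Kifc5b* was at 6.09 and 7.44 RPKM in Het and 4.75 and 4.79 RPKM in Homo. The pair shared 1372 words of 50 bases, 38.6% of those of *Kifc1* and 36.6% of those of *Kifc5b*, so how reads were divided between them is uncertain.

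Kinesins that act on kinetochore or astral microtubules complete the class. *Kif18a*, which dampens chromosome oscillation at the metaphase plate, had 15.4 and 15.7 RPKM in Het and 11.8 and 11.1 RPKM in Homo, a log2 fold change of -0.44 (adjusted p = 0.00462, limma). *Kif2c*, the depolymerase that corrects wrong attachments, had 30.7 RPKM in both Het libraries and 24.5 and 25.3 RPKM in Homo, a log2 fold change of -0.30 (adjusted p = 0.00908, limma). *Kif18b*, which shortens astral microtubules, had 17.9 and 18.3 RPKM in Het and 13.9 and 16.1 RPKM in Homo. Its libraries did not overlap, but the Homo libraries were far apart and its log2 fold change of -0.28 missed the threshold (adjusted p = 0.0533, limma, and 0.0045 to 0.338 over the 13 alternatives).

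The number of mitotic kinesins that passed depended on the libraries kept, as it did over all genes tested (5.13 to 8.52% with a library left out, against 19.7%). It was 5 without the first Het library, 7 without the second, 6 without the first Homo library and 0 without the second, where all 13 had an unadjusted p under 0.05 and the lowest adjusted p was 0.056. It was 13 with limma voom on the recovered reads. The 13 were lower in Homo in each of these fits. With a library left out no other direction was possible, since for each of the 13 both Homo libraries were below both Het libraries. Over the 13 alternatives the median log2 fold change of the class stayed between -0.39 and -0.35. Part of the exons is shared with a gene on the opposite strand in 4 of these genes, 29.3% of the exonic bases in *Kif20a* (with *Cdc23*), 15.1% in *Kif4* (with *Pdzd11*), 1.96% in *Kif22* and 0.112% in *Kif18a*. Whether the counting used strand is not given in the sources used here, and reads of the partners cannot be told apart without it.

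**Figure D3:**
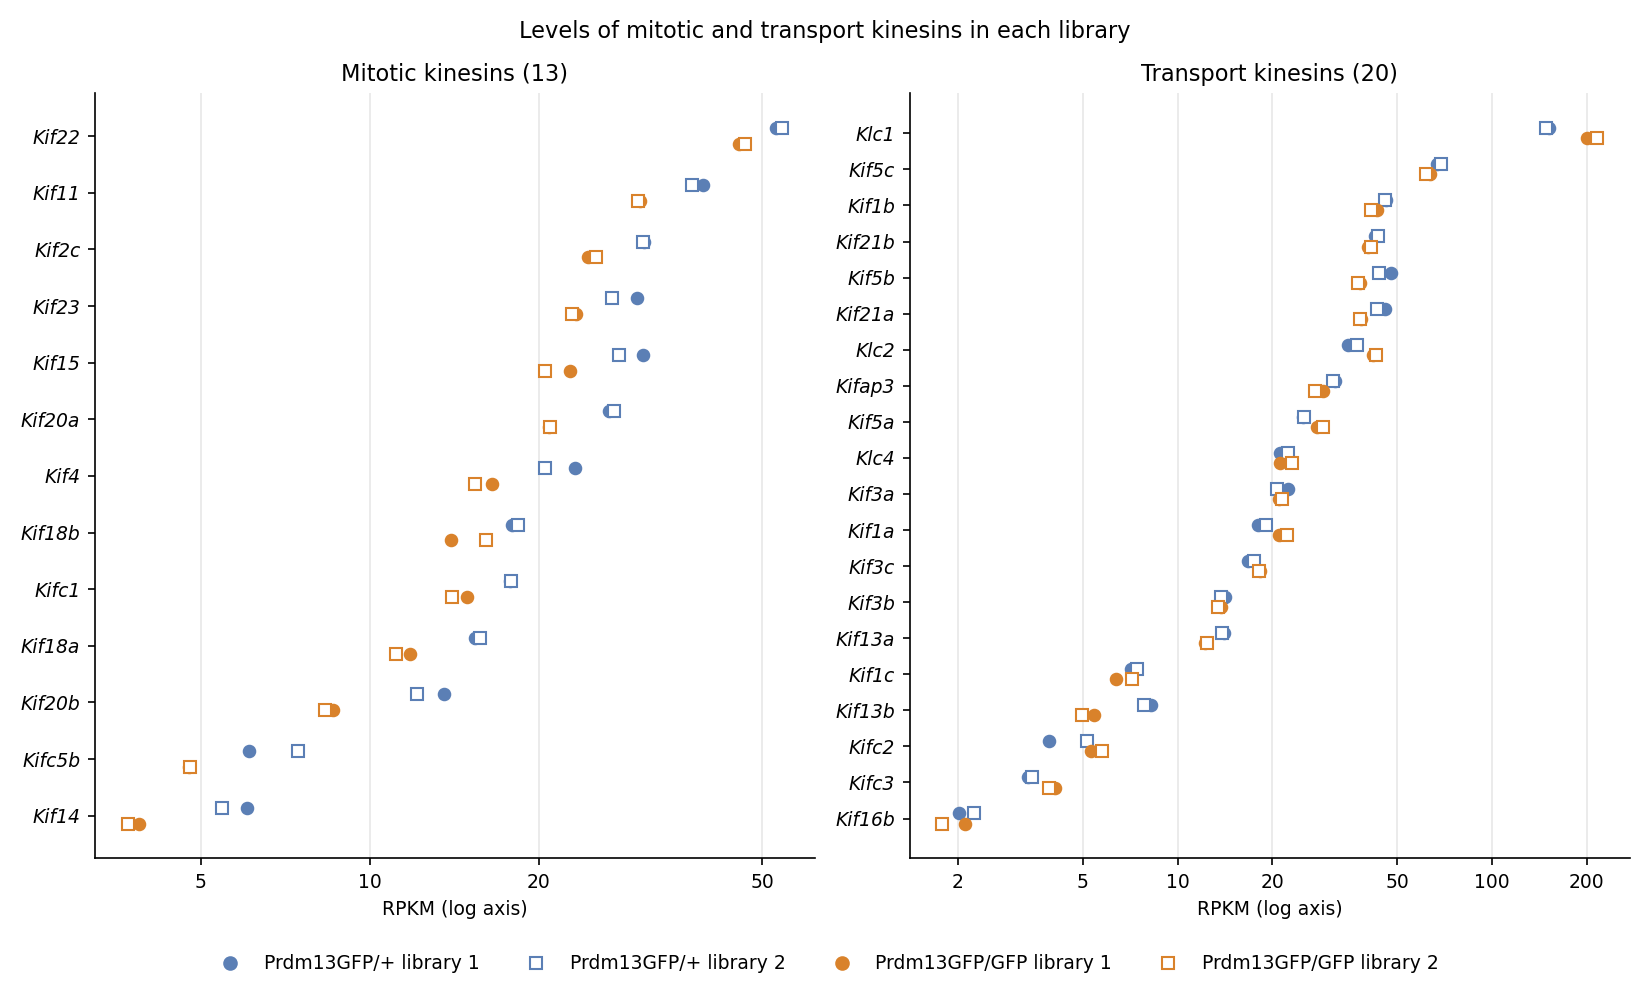
RPKM of the 13 mitotic and 20 transport kinesins tested in each of the 4 libraries, on a log axis, with Prdm13GFP/+ in blue above Prdm13GFP/GFP in orange, circles for the first and squares for the second library. Every mitotic kinesin has both orange points to the left of both blue points, while *Klc1*, *Klc2*, *Kif1a* and *Kif5a* have them to the right.

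The transport kinesins did not move together. Of the 20 tested, 3 passed as lower, 3 as higher and 14 did not pass, and the median log2 fold change was -0.05. The shares of all genes tested that passed were 9.95% as lower and 9.76% as higher. Summed over the class, the level was 625 and 620 RPKM in Het and 654 and 670 RPKM in Homo, with no overlap. This direction rests on *Klc1*, without which the other 21 genes summed to 472.3 RPKM in both Het libraries and to 454 RPKM in both Homo libraries. Without a single library the counts fell to between 0 and 2 lower and to 1 higher. With the second Homo library left out, none passed as lower, where 3 transport kinesins in all had an unadjusted p under 0.05 in that direction. With limma voom on the recovered reads, 6 passed as lower and 4 as higher, also with the reads of *Kif5a*, which may be 2 times too high, divided by 2.

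Kinesin-1 is a tetramer of heavy chains, which walk, and light chains, which bind cargo and hold the motor inactive without it. *Klc1* (gene ID 16593, chr12:111758435-111807844), the light chain of neurons, was the most abundant of all the kinesin genes, with 152 and 148 RPKM in Het and 201 and 216 RPKM in Homo. The Homo libraries were far above the Het libraries, and the log2 fold change of 0.47 (SE 0.051, adjusted p = 0.00174, limma) was the largest increase among the 20 transport kinesins tested. *Klc2* rose from 34.97 and 37.3 RPKM to 41.9 and 42.6 RPKM, a log2 fold change of 0.23 (adjusted p = 0.0301, limma). *Klc4* had 21.2 and 22.5 RPKM in Het and 21.2 and 23.1 RPKM in Homo, with overlapping libraries and a 95% interval of the log2 fold change from -0.14 to 0.17. *Klc3* had 3 to 13 reads in a library and was not tested. A stretch of 10.6% of the *Klc2* exons lies opposite an antisense transcript.

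The heavy chains did not follow the light chains. *Kif5b*, the heavy chain found in all cell types, was at 47.6 and 43.8 RPKM in Het and 38.1 and 37.6 RPKM in Homo. Both Homo libraries were below both Het libraries, with a log2 fold change of -0.27 (SE 0.057, adjusted p = 0.0207, limma). *Kif5a* (gene ID 16572, chr10:127225695-127266348), the neuronal heavy chain that carries neurofilaments, was at 25.0 and 25.2 RPKM in Het and 27.7 and 29.0 RPKM in Homo. Its libraries did not overlap and its log2 fold change was 0.17, but this missed the threshold (adjusted p = 0.064, limma, and 0.0122 to 0.268 over the 13 alternatives, under 0.05 in 2 of them). *Kif5c* (gene ID 16574, chr2:49619286-49774778), the neuronal heavy chain with the highest level, had 67.1 and 68.7 RPKM in Het and 63.7 and 61.8 RPKM in Homo. Its libraries did not overlap, and its log2 fold change was -0.11, with a 95% interval from -0.22 to -0.0029. This did not pass (adjusted p = 0.139, limma).

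Within a library, ratios between members are free of any factor common to that library. The summed RPKM of the light chains was 1.49 and 1.51 times that of the heavy chains in Het and 2.04 and 2.198 times in Homo. The ratio of *Kif5a* to *Kif5b* was 0.526 and 0.576 in Het and 0.728 and 0.771 in Homo. *Kif5c* stayed at a like part of the heavy chains, with 0.480 and 0.499 of their summed RPKM in Het and 0.492 and 0.482 in Homo, and these overlapped. The summed mitotic kinesins stood at 0.496 and 0.486 of the summed transport kinesins in Het and at 0.368 and 0.358 in Homo. With 2 libraries of 1 pool per genotype, these ratios are given with no test.

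**Figure D4:**
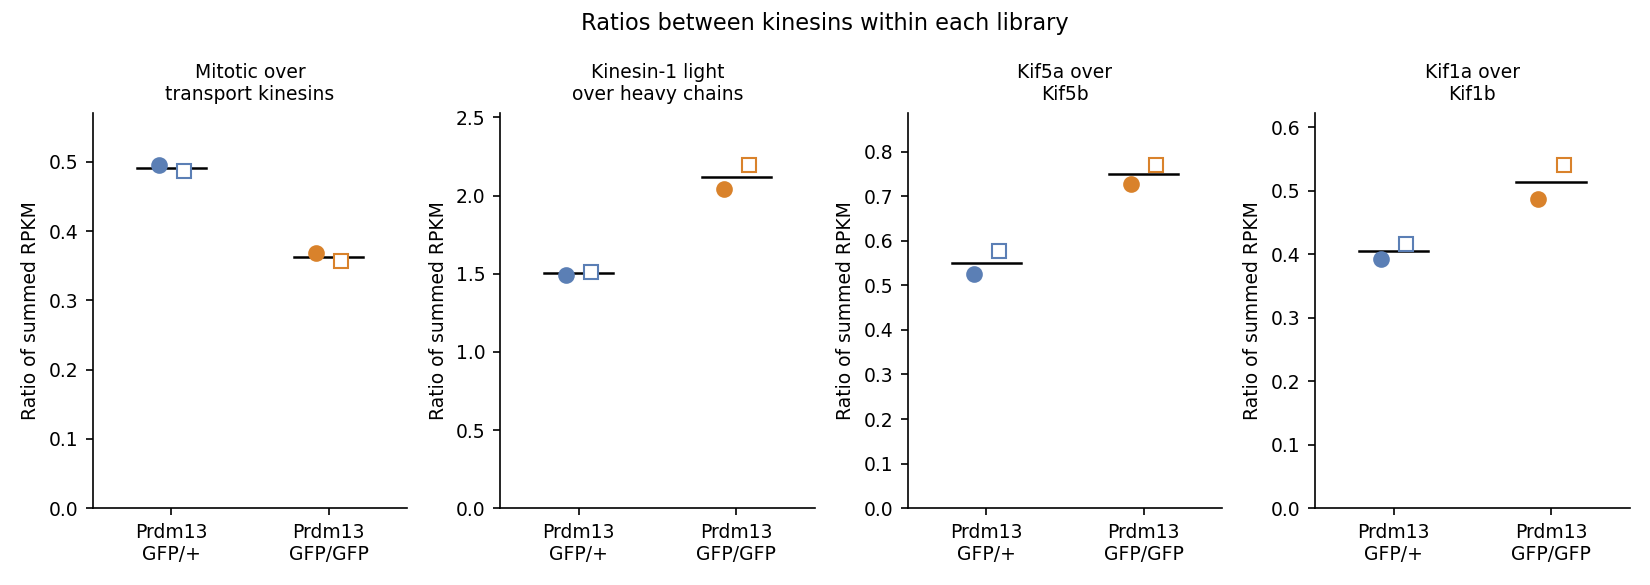
Ratios of summed RPKM within each library for Prdm13GFP/+ (blue) and Prdm13GFP/GFP (orange), with circles for the first library, squares for the second and a bar for their mean, on axes from 0. The mitotic over transport ratio is lower in both Prdm13GFP/GFP libraries (0.368 and 0.358 against 0.496 and 0.486), and the other ratios are higher in both.

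The kinesin-3 family of fast, processive motors held members on both sides. *Kif1a* (gene ID 16560, chr1:93015455-93102039), the carrier of synaptic vesicle precursors, had 18.1 and 19.1 RPKM in Het and 21.0 and 22.3 RPKM in Homo. It was just under the threshold, with a log2 fold change of 0.22 (SE 0.060, adjusted p = 0.0476, limma) and an adjusted p under 0.05 in 6 of the 13 alternatives (0.00333 to 0.246). *Kif1b*, which carries mitochondria and vesicles, had 46.1 and 45.8 RPKM in Het and 43.1 and 41.2 RPKM in Homo, which did not pass (adjusted p = 0.128, limma). The ratio of *Kif1a* to *Kif1b* was 0.392 and 0.416 in Het and 0.487 and 0.541 in Homo. *Kif13b* (gene ID 16554, chr14:64652492-64809618), which binds the scaffold DLG and carries phosphoinositide vesicles, showed the largest decrease of the 39 kinesins tested. It was at 8.25 and 7.84 RPKM in Het and 5.43 and 4.97 RPKM in Homo, with a log2 fold change of -0.62 (SE 0.079, adjusted p = 0.00359, limma). Its paralog *Kif13a* had a log2 fold change of -0.18 (adjusted p = 0.0695, limma). *Kif1c*, a Golgi and mRNA motor, and *Kif16b*, a motor of early endosomes, had overlapping libraries, at 6.37 to 7.44 RPKM and 1.79 to 2.26 RPKM.

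In the heterotrimeric kinesin-2, which serves cilia and axons, the motor subunits were close to even. *Kif3a*, *Kif3b* and *Kif3c* had log2 fold changes of -0.02, -0.03 and 0.09, and none passed. Their 95% intervals ran from -0.17 to 0.12, from -0.17 to 0.10 and from -0.04 to 0.22. *Kifap3*, the subunit that binds cargo, was at 31.7 and 31.2 RPKM in Het and 29.1 and 27.3 RPKM in Homo. Its libraries did not overlap, and the log2 fold change was -0.16, with a 95% interval from -0.29 to -0.02. It did not pass (adjusted p = 0.0967, limma), and its adjusted p was under 0.05 in 2 of the 13 alternatives. *Kif17*, the homodimeric motor of this family, had 8 to 22 reads in a library and was not tested. In *Kif3c*, 35.3% of the exonic bases lie opposite an antisense transcript.

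Of the kinesin-4 motors that hold back microtubule growth in axons, *Kif21a* was lower, with 45.8 and 43.1 RPKM in Het and 38.4 and 38.2 RPKM in Homo (log2 fold change -0.21, adjusted p = 0.0329, limma). *Kif21b*, at 42.4 and 43.4 RPKM in Het and 40.3 and 41.3 RPKM in Homo, was not past the threshold (log2 fold change -0.07, adjusted p = 0.338, limma). The minus-end motors *Kifc2* and *Kifc3* had log2 fold changes of 0.30 and 0.23, which did not pass (adjusted p = 0.18 and 0.133, limma). Both were low, at 3.33 to 5.75 RPKM.

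Among the ciliary and centriolar kinesins, 3 of 6 were tested. *Kif24* (gene ID 109242, chr4:41389964-41464919), a centriolar depolymerase that keeps cycling cells from growing a cilium, was at 5.28 and 5.65 RPKM in Het and 3.97 and 3.81 RPKM in Homo. Its log2 fold change was -0.48 (SE 0.085, adjusted p = 0.0116, limma), and the adjusted p was 0.0544 to 0.102 with a single library left out. *Kif7*, the ciliary tip regulator of Hedgehog signalling, was at 6.65 and 6.31 RPKM in Het and 5.505 and 6.32 RPKM in Homo. Its libraries overlapped, and its log2 fold change was -0.13 (adjusted p = 0.35, limma), with a 95% interval from -0.35 to 0.08. *Kif27*, a relative of *Kif7*, had 1.30 and 1.28 RPKM in Het and 1.42 and 1.39 RPKM in Homo (adjusted p = 0.686, limma). *Kif6*, *Kif9* and *Kif19a*, motors of motile cilia, were at 0.293 to 0.9796 RPKM and were not tested.

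The remaining members include the one with the largest fold of the 39 tested. *Kif26b* (gene ID 269152, chr1:178529125-178932857), an atypical kinesin without motor activity that acts in cell adhesion and Wnt5a signalling, was at 1.79 and 2.04 RPKM in Het and 3.28 RPKM in both Homo libraries. Its log2 fold change was 0.75 (SE 0.124, adjusted p = 0.00898, limma). It did not pass without the first or without the second Homo library (adjusted p = 0.0667 and 0.083, limma). Its relative *Kif26a*, which restrains growth factor signalling, was at 2.64 and 3.02 RPKM in Het and 2.62 and 3.12 RPKM in Homo, which overlapped. *Kif2a*, a depolymerase of neurons and of spindle poles, was at 30.02 and 29.3 RPKM in Het and 31.0 and 29.3 RPKM in Homo, with a 95% interval of the log2 fold change from -0.11 to 0.15. The sign of the small differences of *Kif26a* and *Kif2a* changed with quantile normalization. *Kif12* had 1 read in 1 library.

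RNAs of the partners of mitotic kinesins were lower too. Of 22 mitotic partners (regulators, kinetochore and midzone genes), all 22 were lower in Homo, 19 passed and the median log2 fold change was -0.34. For these partners and the S phase genes below, the share to compare is the 9.95% of all genes tested that passed as lower. *Cenpe*, the kinetochore kinesin outside the symbol rule, was at 21.6 and 19.7 RPKM in Het and 14.7 and 14.4 RPKM in Homo (log2 fold change -0.50, adjusted p = 0.00349, limma). *Prc1*, the midzone crosslinker that recruits *Kif4*, had a log2 fold change of -0.43 (adjusted p = 0.00254, limma), and *Aspm*, a spindle pole protein of neural progenitors, -0.63 (adjusted p = 0.0017, limma). Without the second Homo library 3 of the 22 passed, and 11 to 13 passed without another library. Of 16 S phase genes, 15 were lower and 4 passed (*Ccne1*, *Cdt1*, *Gins2* and *Mcm3*), with a median of -0.12, and 0 passed with any single library left out, where 4 to 6 had an unadjusted p under 0.05 and 6 passed with limma voom.

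Genes that work with transport kinesins were counted beside all genes tested, of which 9.95% passed as lower and 9.76% as higher. In lists this short, the counts of adaptors and of dynein and dynactin genes were near these shares. Of 20 cargo adaptors tested, 2 passed as higher, *Arl8a* and *Fez1*, both of which join kinesins to vesicles, and 0 as lower, where 1 had an unadjusted p under 0.05 and 1 passed with limma voom. Limma voom passed 5 adaptors as higher. Without the second Homo library, 0 adaptors passed in either direction, where 3 were higher at an unadjusted p under 0.05, and without the second Het or the first Homo library 1 passed. Of 18 genes of dynein and dynactin, the motor that walks the other way, 1 passed as lower (*Bicd2*) and 2 as higher (*Dynll1* and *Dctn6*), and 0 passed with any single library left out, where 1 was lower and 3 to 5 were higher at an unadjusted p under 0.05. Limma voom passed 2 as lower and 3 as higher, and the fit with the replicate number as a block passed 1 and 6, and 4 adaptors as higher. Of 16 neuronal tubulin and microtubule genes, 6 passed as higher and 2 as lower. The highest fold changes were those of *Tubb2a*, at 80.4 and 79.0 RPKM in Het and 131 and 137 RPKM in Homo, and of *Map6*, at 26.9 and 27.5 RPKM in Het and 41.6 and 44.2 RPKM in Homo. With a single library left out, 3 to 5 of these genes passed as higher and 0 as lower, where 2 or 3 were lower at an unadjusted p under 0.05 and limma voom passed 4 as lower.

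**Figure D5:**
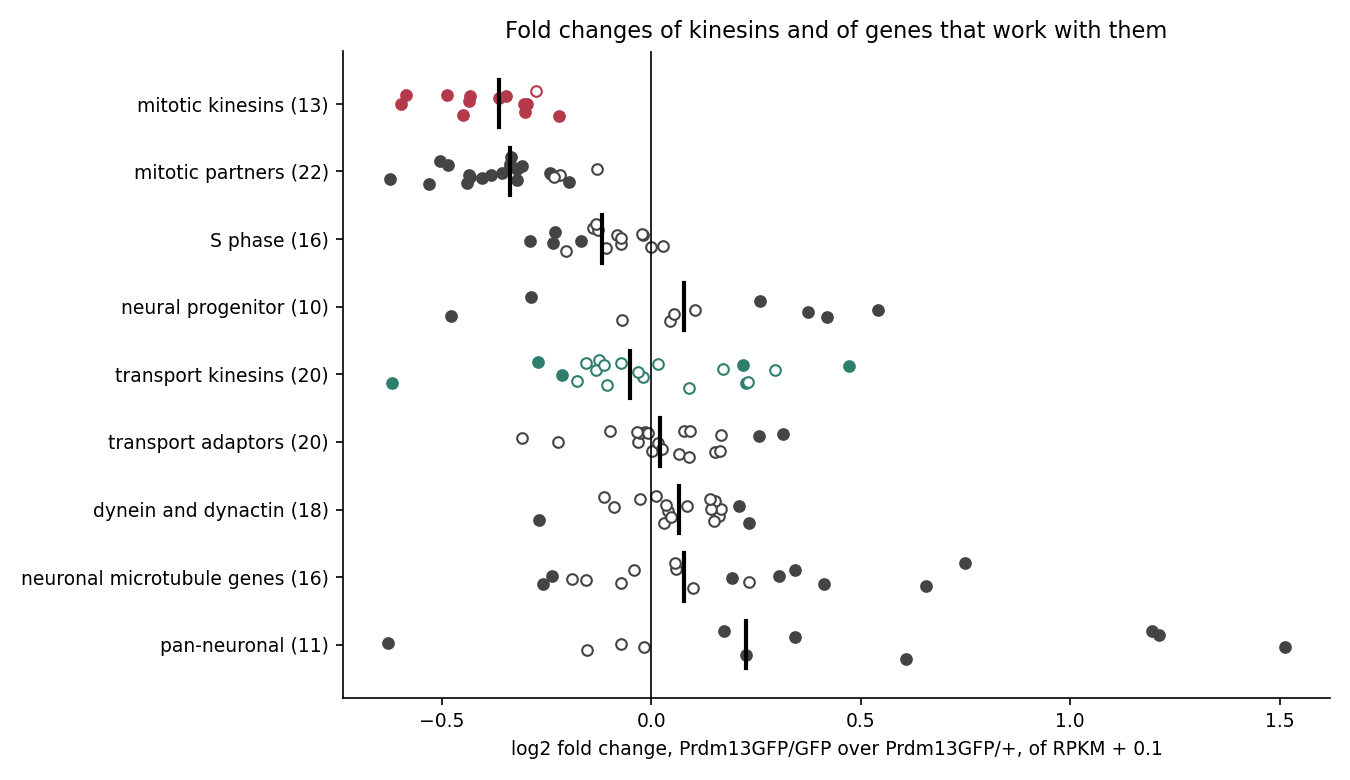
Log2 fold change (Prdm13GFP/GFP over Prdm13GFP/+, on RPKM + 0.1) of each tested gene of the kinesin classes and of lists of related genes, with the number of genes in brackets, filled points for an adjusted p under 0.05 and a black bar at the median. Mitotic kinesins and their partners lie below 0 throughout (medians -0.36 and -0.34), while the transport lists straddle it and pan-neuronal genes reach 1.51. *Tubb3* and *Dcx* appear in both the neuronal microtubule and the pan-neuronal list.

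Markers of cell state moved beside these results. Of 11 pan-neuronal genes 7 passed as higher and 1, *Snap25*, as lower. The summed level of the 11 was 1852 and 1917 RPKM in Het and 2403 and 2525 RPKM in Homo. *Tubb3* and *Dcx* are in this list and also among the neuronal tubulin and microtubule genes above, so the lists are not separate. Of 10 neural progenitor genes, 7 were measured higher and 3 lower, with a median log2 fold change of 0.08. Among them 4 passed as higher and 2, *Sox2* and *Hes1*, as lower, where 9.76% and 9.95% of all genes tested did. The summed level of the 10 was 2276 and 2260 RPKM in Het and 2278 and 2363 RPKM in Homo. With single libraries left out, 4 or 5 of the pan-neuronal genes passed as higher, and 0 to 3 of the progenitor genes as higher with 1 or 2 as lower. Both lists were at high levels in each library. Markers of other tissues summed to 2.89 to 3.74 RPKM in Het and 3.63 to 4.17 RPKM in Homo for 8 endothelial genes, to 5.22 to 5.55 and 4.18 to 4.26 RPKM for 8 mesenchymal genes and to 47.3 to 48.2 and 48.7 to 49.99 RPKM for 9 erythroid genes, of which 3 were at 0 throughout. The 7 genes of neural crest, glia and dorsal root ganglion that are reported here summed to 13.0 and 16.5 RPKM in Het and 7.85 and 8.35 RPKM in Homo, and the lower sum in Homo was that of *Foxd3* (10.1 and 12.8 against 4.20 and 4.25 RPKM), which passed as lower. The other 6 summed to 2.88 and 3.70 RPKM in Het and 3.65 and 4.10 RPKM in Homo, which overlapped. This list was shortened after its values were seen, so its sum is a description of these 7 genes. Their part in the levels of the kinesins was not tested.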

How the data were processed

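RNA-seq of sorted GFP+ cells was analysed in 4 libraries, 2 technical replicates of 1 RNA pool per genotype. Per the submitters' processing notes and the study's methods, the authors aligned reads to mm10 with TopHat2 2.1.0, counted them on genes with featureCounts, normalized them in edgeR 3.6.8 and deposited RPKM per gene. Here, log2(RPKM + 0.1) of the genes that reached a mean RPKM of 1 in a genotype was fitted by lmFit, then by eBayes with its trend option, in limma 3.58.1 (R 4.3.3). Whole reads were recovered from the RPKM steps within a tolerance of 0.02 reads for 99.7% of genes above 0 (the exon length this implied was within 5% of the annotation for 72.2%), and tested with limma voom as an alternative. Limits of detection (3 reads) cover counting error only. The 95% intervals of fold changes come from the moderated fit, which holds the spread between technical replicates but not that between embryos. The steps were tested on simulated data. Tables were handled with Python 3.11.15 and pandas 2.3.3. Same-numbered libraries share only a number, and the correlation of their deviations from the group means over genes was 0.05. Other pseudocounts (1 and 0.01), other filters on RPKM, median ratio and quantile scaling, eBayes without its trend, the replicate number as a block and each library left out were tried.

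The kinesin set and all lists were chosen with earlier results of these data known. The genes described with a value in each library are the examples named with the set, the members past 1.5-fold, the 3 largest passing changes and the 2 highest levels of each class. Further members, the genes that passed in the other lists, *Cenpe*, *Prc1*, *Aspm* and *Foxd3* were chosen after their values were seen. Coordinates and promoter windows are those of RefSeq on GRCm38.p6, and shared exons come from the GENCODE annotation. The ChIP-seq files of the series were not used here. Some results, among them that of 1 marker gene of the neural crest, glia and dorsal root ganglion list, are not reported here.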

Additional observations from a re-analysis of the deposited data

How the results depend on the processing

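The 13 tested mitotic kinesins were measured lower in Homo in every fit. Their lack of overlap fixed this where a library was left out. No mitotic kinesin passed without the filter on RPKM, and neither did any other kinesin (0 lower and 0 higher transport kinesins, 0 kinesins in all and 0 past 1.5-fold), where 20 kinesins were lower and 7 higher at an unadjusted p under 0.05 and 0.209% of the 24421 genes then tested passed. With a pseudocount of 1, 0 kinesins passed and reached 1.5-fold, since the pseudocount shrinks the folds. Transport kinesins that passed as higher numbered 1 with quantile normalization. With eBayes without a trend 1 transport kinesin was lower, 1 higher and 13 kinesins passed in all. With limma voom on recovered reads, 6 transport kinesins were lower. The recovered reads of *Kif5a* and *Kif26b* could be 2 times too high, and with them divided by 2, an alternative chosen after seeing the data, limma voom gave *Kif5a* an adjusted p of 0.028 and passed as many transport kinesins. Apart from the pseudocount, the causes of these shifts were not tested.

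Leaving out each library in turn gave 0 to 7 mitotic kinesins lower, 0 to 2 transport kinesins lower, 1 higher, 1 to 11 kinesins passing and 0 to 4 past 1.5-fold. The replicate number as a block raised the kinesins passing from 20 to 23 and put *Kif5a* at an adjusted p of 0.0347 in limma, and it ended no call. *Kif26a* changed sign under quantile normalization (-0.012) and limma voom (-0.00997), and *Kif2a* under quantile normalization (-0.00351). With a single library left out, *Kif26a* lay between -0.10 and 0.14 and *Kif2a* between -0.017 and 0.063. The smallest change that passed, by size on the log2 scale, was 0.21 among the kinesins and 0.16 among all genes tested.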
